A study of Rattus norvegicus with 24 samples.

Results

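Ccl2, Ccl7, Cxcl1, Il6, Il1b and Lif encode secreted signals: 3 chemokines, 2 ligands of the interleukin-6 family and interleukin-1β. They were taken by gene symbol from the deposited expression table, 6 of its 21067 genes, and were read in all 24 libraries. Each library was bulk mRNA from the quadriceps of 1 Sprague-Dawley rat, with male and female rats in each of 4 groups of 6. The rats were 6 weeks old when obtained and all had a week of adaptive feeding and a short habituation to the treadmill. By the level of chromosome Y genes 3 of 6 libraries were high in each group except catgut 2, where 2 of 6 were. The control group was then left untrained. The treadmill group trained for 7 weeks at 20 min a day, with an electric stimulus behind the belt and speeds that rose to 35 m/min, and ran to exhaustion at the end, after which the muscle was taken. The catgut 1 group had absorbable collagen thread placed under ether anaesthesia at 6 acupoints (Bai Hui, Han Gou, Qian Shen, Qiang Feng, Xie Qi and Yang Wa) before the same training, and the catgut 2 group had the same points plus Fei Shu. The control group therefore lacked both the training and the last run, which cannot be told apart here, and no group had thread without training.

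Ccl2 and Ccl7 are neighbouring CC chemokines that draw monocytes through the receptor Ccr2, and Cxcl1 draws neutrophils through Cxcr2. Interleukin-6 is released by contracting muscle, and it shares with leukaemia inhibitory factor, the product of Lif, the receptor chain gp130 (Il6st), which acts through JAK kinases and STAT3. Interleukin-1β is made mainly by myeloid cells as a precursor that caspase-1 cuts, and it induces the other members through NF-κB.

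In the table Ccl2 (ENSRNOG00000007159) lay at chr10:69412017-69413870 and Ccl7 (ENSRNOG00000000239) at chr10:69423086-69424979, both on the plus strand. Cxcl1 (ENSRNOG00000002802) was listed at chr14:18743685-18745457 on the minus strand and Lif (ENSRNOG00000007002) at chr14:84482674-84500642 on the plus strand. Il6 (ENSRNOG00000010278) was listed at chr4:3043231-3047807 on the plus strand and Il1b (ENSRNOG00000004649) at chr3:121876263-121882726 on the minus strand. The genome build of these positions is not given in the sources used here.

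For 4 of the 6 members, Ccl7, Cxcl1, Il6 and Il1b, RefSeq sequence around the gene start was at hand in build GRCr8, from 250 bases before the start to 50 after it. They are shown because these members were high in some of the same libraries. Ccl2 and Lif had no entry. The windows were chr10:67513845-67514144 on the plus strand for Ccl7, chr14:17479272-17479571 on the minus strand for Cxcl1, chr4:5894526-5894825 on the minus strand for Il6 and chr3:137036532-137036831 on the minus strand for Il1b. Each is written 5′ to 3′ on the strand of the gene, and capitals mark matches to 5 motifs: AP-1 (TGANTCA), the cAMP response element (CRE, TGACGTCA), C/EBP (TTGNNCAA) and the NF-κB consensus on both strands, and the TATA box (TATAAA) on the gene strand.
Ccl7: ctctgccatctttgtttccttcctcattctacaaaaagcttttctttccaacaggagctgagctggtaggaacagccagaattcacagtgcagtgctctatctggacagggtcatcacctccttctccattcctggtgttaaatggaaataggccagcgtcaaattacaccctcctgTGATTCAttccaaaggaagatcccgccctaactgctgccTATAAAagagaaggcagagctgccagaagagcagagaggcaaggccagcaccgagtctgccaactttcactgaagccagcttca
Cxcl1: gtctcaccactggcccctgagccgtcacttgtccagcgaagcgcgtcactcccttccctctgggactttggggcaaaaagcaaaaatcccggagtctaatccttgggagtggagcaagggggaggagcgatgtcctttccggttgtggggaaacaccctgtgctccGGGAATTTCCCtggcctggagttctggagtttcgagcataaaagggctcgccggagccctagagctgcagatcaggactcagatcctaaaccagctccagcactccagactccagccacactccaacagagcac
Il6: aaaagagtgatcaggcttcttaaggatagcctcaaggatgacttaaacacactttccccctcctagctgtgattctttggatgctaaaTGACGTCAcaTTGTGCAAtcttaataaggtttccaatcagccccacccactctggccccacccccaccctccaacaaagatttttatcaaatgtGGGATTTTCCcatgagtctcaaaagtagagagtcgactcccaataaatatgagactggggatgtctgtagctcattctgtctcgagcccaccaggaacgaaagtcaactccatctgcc
Il1b: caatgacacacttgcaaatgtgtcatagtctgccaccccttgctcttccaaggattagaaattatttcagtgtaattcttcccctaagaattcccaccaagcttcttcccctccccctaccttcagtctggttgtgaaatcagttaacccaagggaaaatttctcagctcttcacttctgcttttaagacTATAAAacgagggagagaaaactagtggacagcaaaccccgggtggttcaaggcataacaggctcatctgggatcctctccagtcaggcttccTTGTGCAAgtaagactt
The Il6 window held a CRE beginning 162 bases before the start, a C/EBP match at 152 bases and an NF-κB match at 68 bases. Cxcl1 had 1 place with overlapping NF-κB matches on both strands, beginning 84 bases before the start. Ccl7 carried an AP-1 match at 73 bases and a TATA box at 34 bases before the start. Il1b had a TATA box 60 bases before the start and a C/EBP match beginning at base 34 of the transcribed part. Of 33469 promoter windows of this length, 4.18% held the NF-κB consensus, 1.83% the CRE, 7.33% the AP-1 letters, 5.98% the C/EBP letters and 8.8% the TATA box, so these matches are a description of the letters and not of binding.

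Levels are given as FPKM, fragments per kilobase of transcript scaled to library size by the authors. A library at or under 12 counts was taken as at the limit of detection. This was read as 3 fragments because the commonest counts above 0 were 4 and 8. Counts such as 7 and 11 also occurred, so the reading is an assumption. Library totals ran from 45945938 to 78278080 counts. Cxcl1 was above the limit in 24 of 24 libraries, Ccl2 in 23, Ccl7 in 22, Il1b in 20, Lif in 10 and Il6 in 6. All 6 members were rare messages in whole muscle: their mean over the libraries was 3.70 FPKM for Cxcl1, 2.45 for Ccl2, 1.98 for Ccl7, 0.635 for Il1b, 0.227 for Il6 and 0.0866 for Lif. Of 8 listed myofibre markers 5 were present, and they summed to at least 61825 FPKM in every library. The extraction text of the labels speaks of adipose tissue, and 5 adipocyte markers summed to at most 676.3 FPKM in any library. Liver markers summed to 181.1 FPKM in control replicate 2 and 291.3 in treadmill replicate 3, 20.02 in treadmill replicate 2 and less in the other libraries, so results that rest on those libraries are also given without them where a call changes.

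The members shared their highest libraries in part, and 1 library was the highest for all 6. Treadmill replicate 2 ranked first of 24 for all 6 members, and treadmill replicate 4 was among the 4 highest for all 6. Catgut 1 replicate 5 was among the 4 highest for 5 members but at rank 14 for Lif, and catgut 2 replicate 2 was so for 3. Control replicate 1 was at rank 2 for Lif. Catgut 1 replicate 2 was at rank 3 for Ccl2 and 2 for Ccl7 but at 16 for Cxcl1. The main values of the members in the treadmill group are therefore given with and without treadmill replicate 2.

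**Figure D1:**
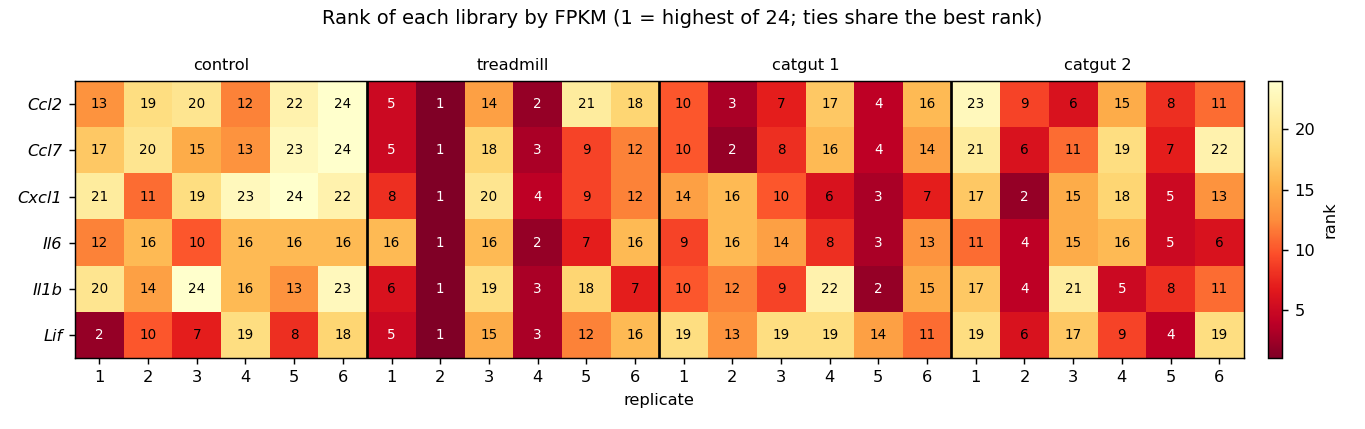
Rank of each of the 24 libraries (columns, by group and replicate) for each of the 6 members (rows), where 1 is the highest FPKM and tied libraries share the best rank. Treadmill replicate 2 holds rank 1 in every row, and treadmill replicate 4 holds ranks 2 to 4.

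Ccl2, the monocyte chemoattractant MCP-1, ranged from 0.180 to 1.23 FPKM with a median of 0.838 in the controls. In the treadmill group it ranged from 0.760 to 22.4 with a median of 1.85. In catgut 1 the lowest, median and highest values were 0.942, 1.88 and 3.46 FPKM, and in catgut 2 they were 0.633, 1.70 and 2.42. Of the 18 trained rats 11 lay above every control, 3 of them in the treadmill group and 4 in each catgut group, and the remaining libraries of each group overlapped the controls. The group means ± SD (n = 6) were 0.846 ± 0.388 FPKM in controls, 5.27 ± 8.49 in treadmill, 2.07 ± 1.13 in catgut 1 and 1.63 ± 0.732 in catgut 2. With treadmill replicate 2 left out, the treadmill mean was 1.84 ± 1.35 (n = 5), near that of the catgut groups.

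Ccl7 followed Ccl2 from a lower base. Its controls ran from 0.0591 to 0.773 FPKM with a median of 0.416. The treadmill libraries ran from 0.444 to 23.1 with a median of 1.72. Its level in the catgut 1 group was 0.529 to 2.40 FPKM (median 1.51), and in catgut 2 it was 0.308 to 2.03 (median 0.788). Here 12 of the 18 trained libraries exceeded every control, 5 of 6 in the treadmill group, 4 in catgut 1 and 3 in catgut 2. In catgut 2 the 6 libraries separated into 3 between 1.19 and 2.03 FPKM and 3 between 0.308 and 0.390, and the lower ones sat within the control range. Mean Ccl7 was 0.402 ± 0.264 FPKM in controls, 5.03 ± 8.89 in treadmill, or 1.42 ± 0.807 (n = 5) without replicate 2, 1.48 ± 0.791 in catgut 1 and 1.02 ± 0.797 in catgut 2.

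Cxcl1, the neutrophil chemoattractant, was the most abundant member. Control values were 0.457 to 2.70 FPKM with a median of 0.683, and the highest of them, in replicate 2, was far above the next control at 1.03. Treadmill values were 0.908 to 14.2 with a median of 3.18, those of catgut 1 were 2.17 to 8.86 with a median of 3.59, and those of catgut 2 were 1.04 to 12.5 with a median of 2.33. All 6 catgut 1 libraries were above 5 of the 6 controls, and 10 of the 18 trained libraries were above all of them. The mean was 1.03 ± 0.837 FPKM in controls, 5.36 ± 4.93 in treadmill, 4.17 ± 2.5 in catgut 1 and 4.22 ± 4.36 in catgut 2. The treadmill mean without replicate 2 was 3.59 ± 2.65 (n = 5).

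Il6 was near absent at rest. It had 0 counts in 4 of 6 controls and at most 11 in the others, so no control was above the limit. The 6 libraries above the limit were all from trained rats: 119 counts in treadmill replicate 2, 76 in treadmill replicate 4, 46 in catgut 1 replicate 5, 29 in catgut 2 replicate 2, 19 in catgut 2 replicate 5 and 14 in treadmill replicate 5. The remaining 12 trained libraries were at or under the limit, 3 of the treadmill group with 0 counts. The group means were 0.0351 ± 0.0565 FPKM in controls, 0.522 ± 0.773 in treadmill, 0.177 ± 0.231 in catgut 1 and 0.175 ± 0.162 in catgut 2. Set against the mean limit of the control libraries, 0.145 FPKM, the treadmill mean was at least 3.59-fold higher, or at least 1.81-fold without replicate 2, and the means of catgut 1 and catgut 2 were at least 1.22-fold and 1.21-fold higher. Each catgut bound rested on 1 library: without catgut 1 replicate 5 that mean was 0.0856 FPKM and without catgut 2 replicate 2 it was 0.122, both under the limit.

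Lif, the other gp130 ligand, did not share this pattern across groups. Its controls lay between 0 and 0.162 FPKM with a median of 0.0801, and its catgut 2 libraries between 0 and 0.141 with a median of 0.0524. In catgut 1 no library passed 12 counts. Only treadmill replicate 2, with 103 counts and 0.737 FPKM, exceeded every control, while the other 5 treadmill libraries ran up to 0.149. Mean Lif was 0.0715 ± 0.0567 FPKM in controls and 0.189 ± 0.273 in treadmill, or 0.0793 ± 0.0575 (n = 5) without that library. At this depth a group difference in Lif outside that library was not detectable.

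Il1b ran from 0 to 0.316 FPKM in the controls with a median of 0.173. The treadmill libraries held 0.155 to 4.41 with a median of 0.691, catgut 1 held 0.0569 to 1.65 with a median of 0.410, and catgut 2 held 0.113 to 1.10 with a median of 0.503. As for Ccl7, 12 of 18 trained libraries were above every control, 4 in each trained group. Mean Il1b was 0.164 ± 0.130 FPKM in controls, 1.29 ± 1.62 in treadmill, 0.543 ± 0.569 in catgut 1 and 0.540 ± 0.391 in catgut 2, and without treadmill replicate 2 the treadmill mean was 0.669 ± 0.599 (n = 5).

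**Figure D2:**
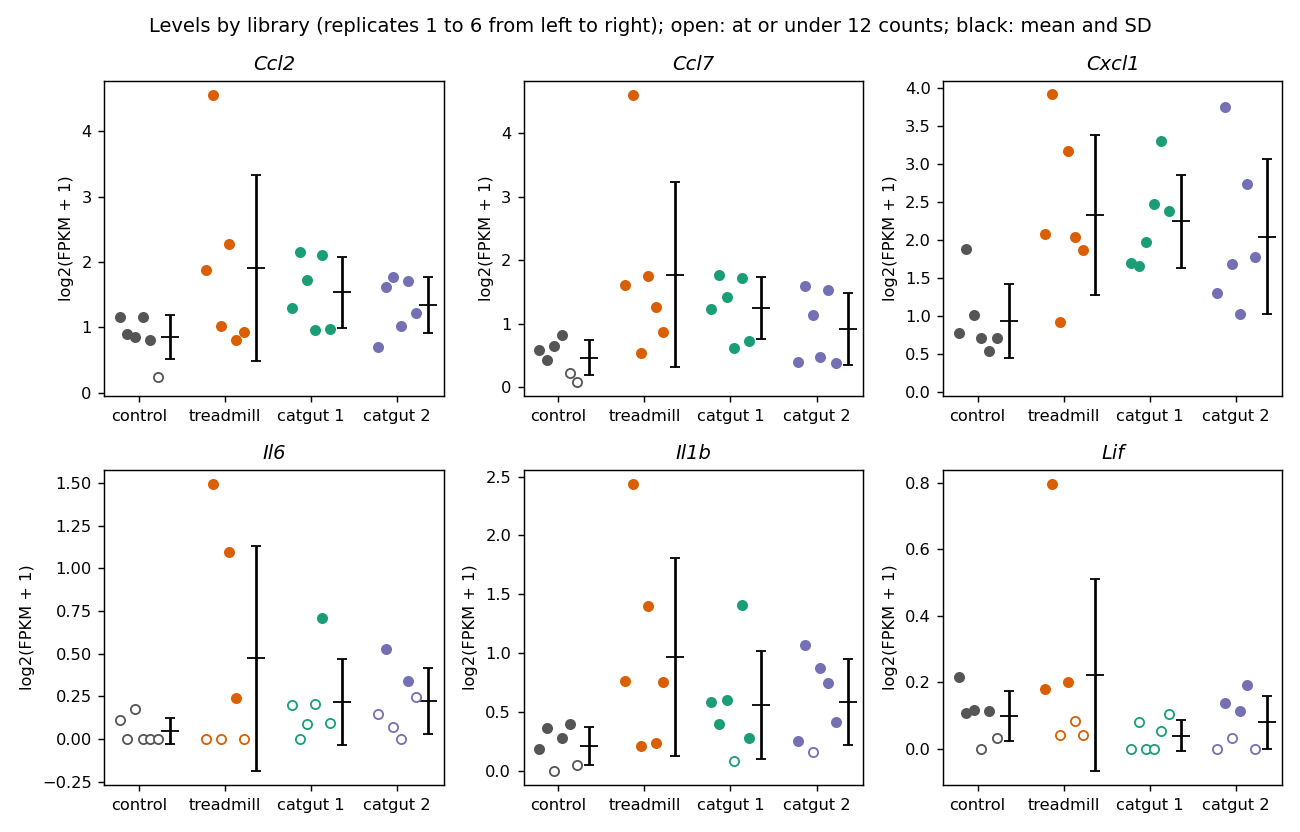
log2(FPKM + 1) of each member in the 6 libraries of each group, replicates 1 to 6 from left to right, with the mean and SD in black. Open points are libraries at or under 12 counts; treadmill replicate 2 is the highest point of every panel, and no control passes the limit for Il6.

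The treadmill group was compared with untrained controls to ask what training with exhaustive running changed. Each gene was tested with edgeR's quasi-likelihood test, and the criterion of the study was applied: a ratio of mean FPKM above 1.5 or below 0.667 with an unadjusted p under 0.05. Lif fell under the filter of a mean of 0.1 FPKM over all 24 libraries, so 5 members were among the 14772 genes tested. Il6, with a control mean of 0.0351 FPKM, passed it only through the trained groups. The counts and medians over 5 members, here and below, therefore depend in part on the filter. Fitted with no filter, Lif did not meet the criterion (log2 fold change 1.21). All 5 met the criterion upward, against 1.77% of all genes tested. The members were chosen with earlier results of these data known, so such shares, here and below, are no test of the set. The ratio of mean FPKM was 12.5 for Ccl7, 7.87 for Il1b, 6.23 for Ccl2 and 5.19 for Cxcl1. As log2 fold change ± SE these were 3.52 ± 0.920, 2.90 ± 0.936, 2.52 ± 0.790 and 2.31 ± 0.616. Each SE of an edgeR fold change, here and below, was derived from the test. It is the size of the log2 fold change over the square root of the F statistic. Il6 met it with the lower bound on its fold given above. The median log2 fold change over the 5 members was 2.90, or 2.52 with Il6 at its bound, beside -0.002 over all genes tested.

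After adjustment over all genes the tools differed. By edgeR 0 of 5 members had a Benjamini-Hochberg adjusted p under 0.05, with 0.354 the lowest, 0.526 the highest and 5 of 5 under 0.05 unadjusted, and 0.0542% of all genes passed. limma on log2(FPKM + 1) also gave 0. DESeq2 passed 3, Ccl7 (adjusted p = 0.00137), Cxcl1 (adjusted p = 0.0083) and Ccl2 (adjusted p = 0.034), where 0.846% of all genes passed, and it gave Il6 no adjusted p. The exact two-sided permutation test on log2(FPKM + 1), which cannot go below 0.00216 with 6 against 6, gave p = 0.0108 for Cxcl1, 0.013 for Ccl7, 0.0303 for Il1b, 0.0866 for Ccl2, 0.227 for Il6 and 0.413 for Lif. No member had all 6 treadmill libraries above all 6 controls, a separation seen for 0.325% of genes. Nothing in the labels says that 2 libraries share an animal, so each was counted as 1 rat.

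Treadmill replicate 2 set much of the size of these differences. Without it 4 of the 5 members still met the criterion, against 1.65% of all genes, and Il6 did not. The log2 fold change became 1.91 for Ccl7, 1.19 for Ccl2, 2.11 for Il1b and 1.85 for Cxcl1, with exact permutation p of 0.0195, 0.149, 0.0455 and 0.0238. Il6 was also not called by DESeq2 or by either limma fit, and limma on log2(FPKM + 1) did not call Ccl2. It also missed the criterion without treadmill replicate 4, and on leaving out any 1 of the control replicates 2, 4, 5 and 6, where its fitted log2 fold change was 3.22 to 3.46.

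**Figure D3:**
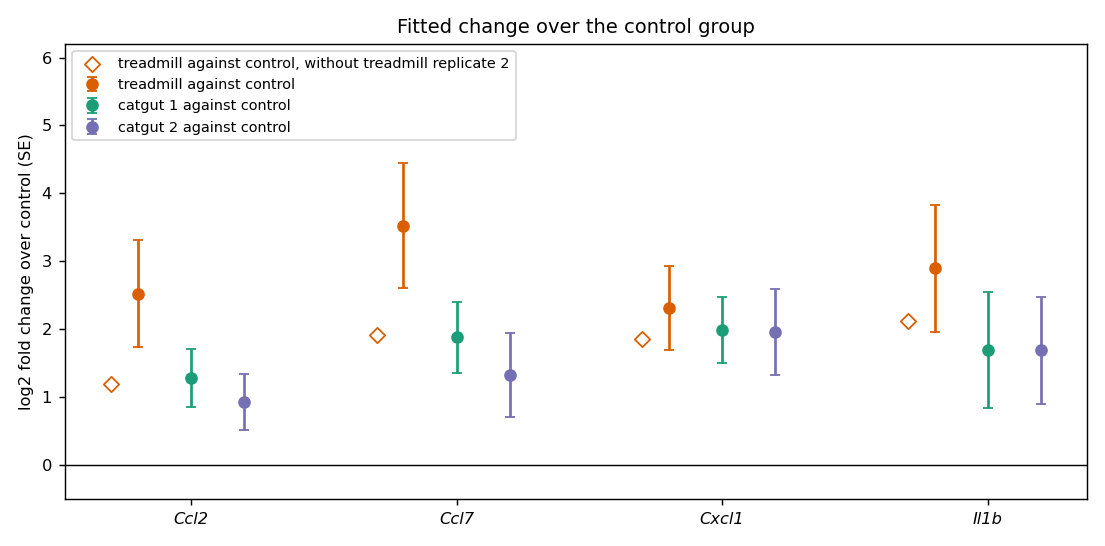
Fitted log2 fold change over control, with an SE derived from the test statistic, for 4 members in the 3 trained groups of 6 rats. Open diamonds give the treadmill value without treadmill replicate 2. Il6 and Lif, with groups at the limit of detection, are left out; the treadmill value of Ccl7 drops from 3.52 to 1.91, beside 1.88 in catgut 1.

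The catgut groups were likewise compared with the same controls. In catgut 1 the 3 chemokines met the criterion, against 2.32% of all genes tested in that direction. Cxcl1 was 4.04-fold the control mean (log2 fold change 1.99 ± 0.490), Ccl7 3.68-fold (1.88 ± 0.521) and Ccl2 2.45-fold (1.28 ± 0.428). Exact permutation p-values were 0.00649, 0.013 and 0.0303 in that order. Il1b, with a log2 fold change of 1.70 ± 0.850 and an exact permutation p of 0.0758, and Il6, with an exact permutation p of 0.0887, did not meet it. Single libraries decided both: Il6 met it without control replicate 3 or catgut 1 replicate 2, and Il1b without catgut 1 replicate 4. By edgeR no member passed adjustment (lowest adjusted p = 0.276, 3 of 5 unadjusted, 0.0203% of all genes), limma passed 0, and DESeq2 passed Cxcl1 and Ccl7 where 1.15% of genes passed. Without control replicate 2, the control with the most Cxcl1 and with liver transcripts, Cxcl1 reached an edgeR adjusted p of 0.0469.

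In catgut 2 only Cxcl1 and Ccl2 met the criterion among the 5, against 3.52% of all genes. Cxcl1 was 4.09-fold the control mean (log2 fold change 1.96 ± 0.633, exact permutation p = 0.026). Ccl2 was 1.92-fold (0.93 ± 0.407, exact permutation p = 0.0584), and it no longer met the criterion on leaving out control replicate 2, 3 or 5 or catgut 2 replicate 2, 3 or 5, with a log2 fold change of 0.79 to 0.94. Ccl7, with a log2 fold change of 1.33 ± 0.614 and an exact permutation p of 0.123, and Il1b, with 1.69 ± 0.789 and an exact permutation p of 0.0563, did not meet it. Both met it when certain single libraries were left out, Ccl7 without control replicate 3 or 4 or catgut 2 replicate 1, 4 or 6, and Il1b without control replicate 2, 3 or 5 or catgut 2 replicate 1 or 3, as did Il6 without control replicate 3 or catgut 2 replicate 4. No member passed adjustment by edgeR (lowest adjusted p = 0.166, 2 unadjusted, 0.508% of all genes) or limma. DESeq2 passed Cxcl1 (adjusted p = 0.0211) where 5.24% of genes passed, and it gave Il6 no adjusted p. Complete separation upward from the controls was seen for no member in either catgut group, beside 0.318% of genes in catgut 1 and 0.724% in catgut 2.

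The catgut groups were then set against the treadmill group, to ask what the thread, with its needling and ether, changed in trained rats. No group was described as having needling or ether without thread, so these cannot be told apart. Both comparisons share the treadmill libraries. In catgut 1 no member of the 5 met the criterion, and 1.99% of all genes did so downward. The log2 fold changes were -1.24 ± 0.738 for Ccl2, -1.64 ± 0.800 for Ccl7, -0.32 ± 0.530 for Cxcl1, -1.44 ± 1.32 for Il6 and -1.20 ± 0.801 for Il1b. Adjusted p-values were 0.748 to 0.985 by edgeR, with 0 of 5 under 0.05 unadjusted and 0.0474% of all genes passing. limma passed none, nor did DESeq2, which gave Ccl7 no adjusted p. With treadmill replicate 2 left out the values were 0.09 ± 0.481 for Ccl2 and 0.14 ± 0.495 for Cxcl1, a change of sign, and -0.03 ± 0.462 for Ccl7, -0.63 ± 1.37 for Il6 and -0.42 ± 0.744 for Il1b, with exact permutation p from 0.602 to 0.874. Leaving out treadmill replicate 3, 5 or 6 instead brought Ccl7 past the criterion (log2 fold change -1.87, -1.82 and -1.83), and leaving out catgut 1 replicate 5 did so for Il1b (-1.92). With no filter on low values Lif met the criterion downward, as did 2.9% of 21067 genes (exact permutation p = 0.0519): the treadmill mean was at least 2.17-fold higher than the limit in catgut 1, but without treadmill replicate 2 it was under that limit.

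In catgut 2 Ccl7 met the criterion downward, at a ratio of 0.202 of the treadmill mean (log2 fold change -2.18 ± 0.876, edgeR adjusted p = 0.385), against 1.79% of all genes. The exact permutation test gave p = 0.19 for it. Leaving out treadmill replicate 2, its log2 fold change was -0.59 and did not meet the criterion, and the call was also lost without catgut 2 replicate 1, 4 or 6 (-1.999 to -2.02). Ccl2 stood at -1.57 ± 0.733 and missed the criterion (exact permutation p = 0.446), met it on leaving out treadmill replicate 1, 3, 5 or 6 (-1.71 to -1.80), and was -0.27 without treadmill replicate 2. Cxcl1 at -0.34 ± 0.651, Il6 at -1.46 ± 1.3 and Il1b at -1.20 ± 0.743 did not meet the criterion. For these the values without treadmill replicate 2 were 0.10 ± 0.646, a change of sign, -0.67 ± 1.35 and -0.44 ± 0.671, and the exact permutation p of the 5 members was then 0.374 to 0.963. DESeq2 gave Ccl7 no p-value here and Il6 no adjusted p, and its 1 call by the criterion was Ccl2. No member passed adjustment by edgeR (0 of 5, 1 unadjusted, 0.237% of all genes), limma or DESeq2. With treadmill replicate 2 left out, no member met the criterion in either catgut group against treadmill.

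Between the catgut groups, which differed by the Fei Shu point, no member met the criterion, and 0.9% of all genes did so upward and 0.345% downward. The log2 fold changes of catgut 2 over catgut 1 were -0.56 ± 0.525 for Ccl7 and -0.35 ± 0.378 for Ccl2, with those of Cxcl1, Il6 and Il1b within 0.03 of 0 and SEs of 0.554, 0.947 and 0.659. All 5 adjusted p-values were 1 by edgeR, with 0 of 5 under 0.05 unadjusted, 0.00677% of all genes passing and none of the members by limma or DESeq2.

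Across the 24 libraries the members varied together to different degrees. Over log2(FPKM + 1), Ccl2 and Ccl7, which lie next to each other on chromosome 10, had a Pearson correlation of 0.957 and a Spearman correlation of 0.816. Without treadmill replicate 2 these were 0.88 and 0.791. The next pair by Spearman correlation was Cxcl1 and Il6 with 0.698 and a Pearson correlation of 0.777 (0.655 and 0.729 without it). By Pearson the next pair was Il6 and Il1b with 0.852 (0.701 without it), but their Spearman correlation was 0.339 (0.247 without it). Il6 was at or under the limit in 18 of the 24 libraries. Of the pairs with Lif, Ccl7 and Lif had a Pearson correlation of 0.806, or 0.283 without that library, and centred on the group means the 5 pairs with Lif had Pearson correlations of 0.484 to 0.648 without it. The points share the depth and tissue make-up of their libraries, and the values are descriptions.

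**Figure D4:**
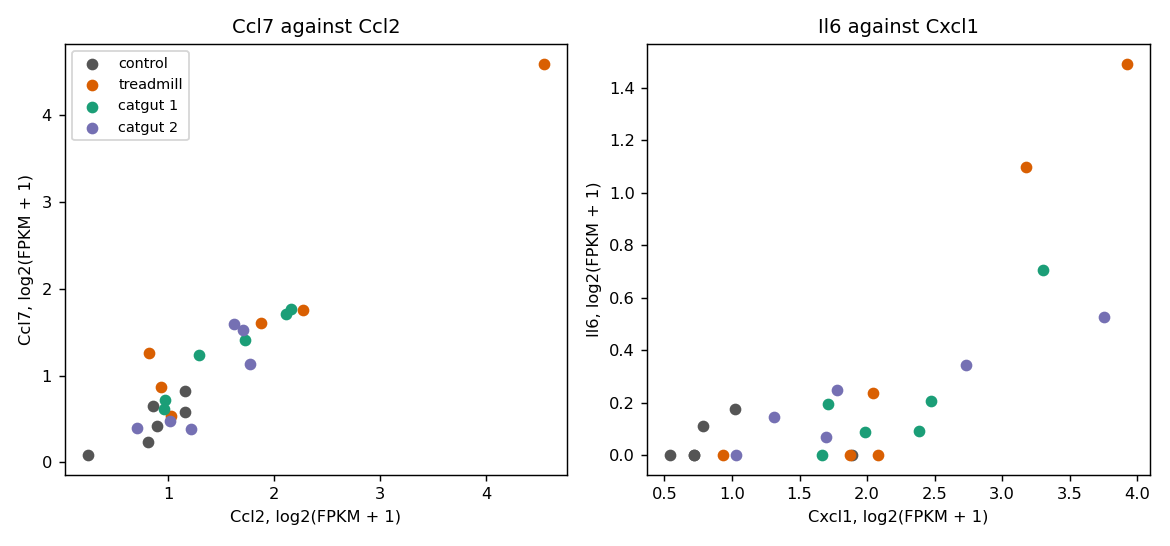
log2(FPKM + 1) of Ccl7 against Ccl2 (left) and of Il6 against Cxcl1 (right), with 1 point for each of 24 libraries coloured by group. The point at the upper right of both panels is treadmill replicate 2; Ccl7 still tracks Ccl2 without it (Pearson 0.88), and Il6 is at or near 0 except in the libraries with the most Cxcl1.

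The genes most like each member were named by Spearman correlation over the 24 libraries. Cxcl1 was closest to Ptgs2 (0.883), which encodes cyclooxygenase-2, then Junb (0.782) and Socs3 (0.762). Il1b was closest to Fosb (0.769), Rasd1 (0.745) and Cdc42ep3 (0.737), and Ccl2 to the scaffold gene Akap12 (0.865), Rasd1 (0.833) and Emd (0.823). Ccl7 was closest to Emd (0.781), Gpsm3 (0.777) and Cnn2 (0.774). For the members mostly at the limit the nearest genes were Zdhhc12 (0.715), Jund (0.682) and Azin2 (0.665) for Il6 and Tacc3 (0.804), C5ar2 (0.735) and Zfp13 (0.704) for Lif.

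Among 19 other chemokine ligands tested, 2 met the criterion upward and 2 downward in the treadmill group against controls, where 1.08% of all genes did so downward. Cxcl2, a further neutrophil attractant, was under the limit in all 6 controls and reached 246 counts and 3.69 FPKM in treadmill replicate 2 and 187 counts and 2.55 FPKM in catgut 1 replicate 5, libraries that were also high in Cxcl1. With a control mean of 0.0096 FPKM, Cxcl2 passed the filter only through trained libraries. Its mean was at least 5.46-fold the control limit in the treadmill group (1.35-fold without replicate 2), 3.25-fold in catgut 1 and 1.75-fold in catgut 2. Leaving out catgut 1 replicate 5 or catgut 2 replicate 2 put the mean of that group under the limit. Cxcl10 and Cxcl11, which attract T cells, met it downward. Control replicate 4 held 9.82 FPKM of Cxcl10 and 0.970 of Cxcl11, while the other controls held at most 0.554 and 0.118. The treadmill libraries held 0.102 to 0.544 FPKM of Cxcl10, within the range of the controls, and all 6 were at or under the limit for Cxcl11. Without treadmill replicate 2 only Cxcl2 of the 19 still met it. Of these 19, 1 met it upward and 3 downward in catgut 1 against control and 1 upward and 2 downward in catgut 2 against control, beside 2.3% and 2.44% of all genes downward. Against the treadmill group 4 were lower in catgut 1 and 2 in catgut 2 by the criterion, beside 1.99% and 1.79% of all genes. The fractalkine gene Cx3cl1 was among them in both (edgeR log2 fold change -0.98 ± 0.286 and -0.98 ± 0.223). Without treadmill replicate 2 only Cx3cl1 of the 19 met it in each catgut group, where 1.55% and 1.53% of all genes did so downward.

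The shared chain Il6st was 15.7 ± 5.08 FPKM in controls, 13.6 ± 2.98 in treadmill, 12.7 ± 3.14 in catgut 1 and 11.8 ± 2.69 in catgut 2, and met the criterion in no comparison. Il6r, the interleukin-6 receptor, was 3.05 ± 0.850 FPKM in controls and 2.36 ± 0.692 in treadmill, and it met the criterion upward in both catgut groups against treadmill, at 3.72 ± 0.674 (log2 fold change 0.66 ± 0.172, edgeR adjusted p = 0.281) and 3.57 ± 1.02 (0.59 ± 0.193, edgeR adjusted p = 0.264), where 1.13% and 1.96% of all genes did so. Lifr was 1.18 ± 0.277, 1.08 ± 0.205, 1.61 ± 0.341 and 1.57 ± 0.372 FPKM from controls to catgut 2. Il1r1 in that order was 1.21 ± 0.855, 0.843 ± 0.337, 1.20 ± 0.253 and 1.34 ± 0.581 FPKM, and met the criterion in catgut 2 against treadmill. Group means of Il1rap, its partner chain, were between 0.234 and 0.382 FPKM, and Il1r2, the decoy receptor, was above the limit in 5 libraries. Of 8 tested receptors for the interleukin-6 and interleukin-1 families, 0 met the criterion in any trained group against control, 1 in catgut 1 against treadmill and 2 in catgut 2 against treadmill, all higher, and without treadmill replicate 2 these counts against treadmill were 3 and 5, where 1.78% and 2.9% of all genes met it upward.

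Chemokine receptors were read in the same way. Ccr1, which binds Ccl7, was 0.412 ± 0.307 FPKM in controls and 0.579 ± 0.618 in treadmill, and met the criterion downward in catgut 1 and catgut 2 against both, at 0.149 ± 0.0822 and 0.186 ± 0.107 FPKM; the call of catgut 2 against treadmill was lost without treadmill replicate 2. The Cxcl1 receptor Cxcr2 was above the limit in 2 controls and no trained library, and Cxcr1 in no library. Ccr3 passed the limit in 1 control. Ccr2 and Ackr1 were looked up by gene symbol but were not listed under it, so neither could be read. Of 7 chemokine receptors tested, 1 met the criterion upward in treadmill against control, beside 1.77% of all genes. It was Ackr3, a scavenging receptor of other CXC chemokines, at 36.2 against 19.3 FPKM. Against control 2 met it downward in catgut 1 and 1 in catgut 2, beside 2.3% and 2.44% of all genes. Against treadmill 2 met it downward in catgut 1 (1.99% of all genes) and 1 in each direction in catgut 2 (1.96% upward, 1.79% downward). Without treadmill replicate 2 the treadmill count against control became 1 downward (Ackr2), where 2.6% of all genes met it downward. Against treadmill the counts then became 1 downward (Ccr1) in catgut 1 (1.55% of all genes) and 0 in catgut 2 (1.53% of all genes).

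Targets of the pathways these ligands use were read next. Socs3, the feedback inhibitor induced by STAT3, was 1.29 ± 0.684 FPKM in controls, 3.19 ± 1.32 in treadmill, 2.83 ± 0.780 in catgut 1 and 2.81 ± 1.08 in catgut 2, and met the criterion upward in all 3 trained groups (edgeR adjusted p = 0.354, 0.303 and 0.124). Among single libraries Socs3 was 3.04 FPKM in treadmill replicate 6, which had 0 Il6 counts, and 4.95 in treadmill replicate 4, which had 76. A link between the levels of Il6 and Socs3 was not tested. Of 14 genes tested in the JAK-STAT3 list, 2 met the criterion upward in treadmill, 3 in catgut 1 and 1 in catgut 2, and none downward, beside 1.77%, 2.32% and 3.52% of all genes upward, which are also the shares for the NF-κB and decay lists. Of 18 NF-κB genes, 2 did so upward in each trained group, with Nfkbiz, an NF-κB cofactor, in all 3: it was 0.264 ± 0.163 FPKM in controls and 0.909 ± 0.457, 0.765 ± 0.254 and 0.691 ± 0.308 in treadmill, catgut 1 and catgut 2. The NF-κB inhibitor gene Nfkbia was 23.9 ± 11.48 FPKM in controls, 30.1 ± 8.48 in treadmill, and met it upward in catgut 1 (38.3 ± 11.3) and catgut 2 (40.0 ± 8.37).

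Genes that destroy cytokine messages were also read. Zfp36, which encodes the mRNA decay factor tristetraprolin, was 35.8 ± 12.8 FPKM in controls, 74.3 ± 11.9 in treadmill, 71.0 ± 17.6 in catgut 1 and 76.8 ± 15.5 in catgut 2. Its edgeR adjusted p was 0.0448 in catgut 2 and 0.125 and 0.168 in treadmill and catgut 1. Zc3h12a, which encodes the nuclease regnase-1, was 1.57 ± 0.396 FPKM in controls, with 2.38 ± 0.827, 2.36 ± 0.630 and 2.68 ± 0.566 in the trained groups, and met the criterion in each. Of 7 decay genes 2 met it upward in each trained group and 1 downward, in catgut 1, beside 2.3% of all genes downward. Without treadmill replicate 2, the upward counts in treadmill were 3 for the JAK-STAT3 list, 1 for NF-κB (Nfkbiz) and 1 for decay (Zfp36), beside 1.65% of all genes.

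Of 12 immediate-early genes listed for the exercise response, 12 met the criterion upward in treadmill, 11 in catgut 1 and 12 in catgut 2. The shares of all genes upward were 1.77%, 2.32% and 3.52%. The median log2 fold changes of the list were 2.24, 2.00 and 2.33. In that order 3, 1 and 6 of the 12 had an edgeR adjusted p under 0.05, beside 0.0542%, 0.0203% and 0.508% of all genes. Without treadmill replicate 2 the treadmill count was 10, beside 1.65% of all genes. The list was chosen with earlier results of these data known, so these shares are no test of it. Among the 12, Arc was 1.37 ± 0.619 FPKM in controls and 13.6 ± 6.67 in treadmill (edgeR adjusted p = 0.0126), and Egr3 was 0.307 ± 0.164 and 3.24 ± 1.40 (edgeR adjusted p = 0.0164). None of the 12 met it between trained groups. In the interleukin-1 family 0 of 4 further genes and 0 of 5 inflammasome genes met the criterion in any comparison, although with treadmill replicate 2 left out the inflammasome gene Casp4 did so downward in treadmill against control and upward in catgut 2 against treadmill. The interleukin-1 antagonist gene Il1rn was above the limit in 8 libraries, with group means of 0.107 to 0.198 FPKM.

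Markers of other cells were summed beside the members, because in bulk muscle more cells of a type and more RNA per cell cannot be told apart. The 11 monocyte and macrophage markers summed to 219.2 FPKM in treadmill replicate 2, the highest of 24 and against group medians of 52.6 in controls, 57.0 in treadmill, 55.9 in catgut 1 and 53.6 in catgut 2. The next were 134.4 in treadmill replicate 1 and 120.6 in control replicate 4, in which Ccl2 was 2.66 and 1.23 FPKM. Treadmill replicate 4, catgut 1 replicate 5 and catgut 2 replicate 2 had sums of 76.6, 76.8 and 101.7. None of the 11 met the criterion in any comparison. Treadmill replicate 2 was also first for 6 mast cell markers in the table (21.7 FPKM, against 11.4 in the highest control and a treadmill median of 4.51). It was first for 6 T and NK cell markers too (1.91), each at or under the limit in at least 12 libraries. For 5 fibroblast markers it was at rank 3 (467.0). Of 5 mast cell markers tested, Cpa3 and Cma1 met the criterion downward in catgut 1 against treadmill, beside 1.99% of all genes. That comparison includes treadmill replicate 2, and the calls without it are not given.

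Neutrophil markers, which bear on Cxcl1, summed to 5.68 FPKM in treadmill replicate 2 and 6.73 in treadmill replicate 4 but to 0 in catgut 1 replicate 5, where Cxcl1 was 8.86 FPKM. The range was 0.838 to 2.82 in controls, 1.05 to 6.73 in treadmill, 0 to 3.80 in catgut 1 and 1.84 to 4.43 in catgut 2, and 7 of 9 of them, Csf3r, Mpo, Elane, Camp, Ngp, Fcnb and Mmp8, were at or under the limit in at least 12 libraries. By the criterion 1 of the 3 tested, S100a9, was higher in treadmill (2.07 ± 1.36 FPKM) and in catgut 2 (1.66 ± 0.560) than in controls (1.04 ± 0.305), beside 1.77% and 3.52% of all genes. Treadmill replicate 2 was at rank 11 for 4 endothelial markers (41.3 FPKM), rank 7 for 4 satellite cell markers (4.49), rank 13 for 5 adipocyte markers (459.7) and rank 11 for 5 myofibre markers (71228). The part of these cells in the levels of the members was not tested.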

How the data were processed

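Quadriceps mRNA of 24 rats, 6 a group, was sequenced. Per the labels the authors aligned reads with HISAT2 2.0 and assembled and quantified transcripts with StringTie 1.3.0, and they deposited 1 table of counts and FPKM for 21067 genes. Its commonest counts above 0 were 4 and 8, so 12 counts were taken as 3 fragments; with counts from 45945938 to 78278080 a library, this limit covers counting error only. No libraries held identical values.

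From the deposited counts, genes with a mean of at least 0.1 FPKM (14772) were tested with edgeR 4.0.16 (TMM, quasi-likelihood, R 4.3.3, Benjamini-Hochberg) in the 2 groups of each of 6 comparisons, with the study's ratio criterion. The exact permutation test used log2(FPKM + 1) of the 6 genes (36 tests, unadjusted) in scipy 1.17.1. DESeq2 1.42.0 and limma 3.58.1 were alternatives, with others named at the end. Code was tested on simulated data. The members and gene lists were chosen with earlier results of these data known. Named were all members, their receptors, 4 feedback genes, at most 4 genes a list and comparison that met the criterion, by smallest p, and the 3 genes most like each member. Casp4 and the single libraries quoted for Cxcl2 and Socs3 were picked after their values were seen. Replicate numbers did not pair the rats: correlations of same-numbered deviations ranged from -0.447 to 0.273.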

Additional observations from a re-analysis of the deposited data

Results flagged for a closer look

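In 8 of the 24 combinations of member and group, the highest of 6 libraries lay apart from the rest by Dixon's test at the 95% level, which divides the gap to the nearest library by the range of the group. For normally distributed values chance gives this in about 1 of 20 groups. The test was run on FPKM without logs and the combinations share libraries, so no chance rate is known for the 8. For treadmill replicate 2 the gap was 0.859 of the range for Ccl2, 0.915 for Ccl7, 0.653 for Il1b and 0.829 for Lif. For catgut 1 replicate 5 it was 0.644 for Cxcl1, 0.759 for Il6 and 0.709 for Il1b. For control replicate 2 it was 0.743 for Cxcl1.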

How the results depend on the processing

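Of the log2 fold changes of the 5 tested members under the alternatives, 578 kept their direction and side of the criterion, 42 passed it anew, 28 no longer met it and 28 changed sign. For the exact permutation differences these numbers were 421, 14, 12 and 21. Where no cause is shown by the alternative itself, the cause was not tested.

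Members meeting the criterion in treadmill against control numbered 5, and 3 with a minimum mean of 1 FPKM, which tests fewer genes, or limma on log2(FPKM + 1), and 4 by DESeq2, with limma on log2(FPKM + 0.1) or with the replicate block, and 4 to 5 on leaving out libraries. In catgut 1 against control they numbered 3, 2 over all 4 groups, 4 by DESeq2 or with counts divided by 4, and 3 to 4 on leaving out libraries. In catgut 2 against control they numbered 2, but 1 in a fit over all 4 groups or with the chromosome Y level as covariate, 4 by DESeq2, with counts divided by 4 or with limma on log2(FPKM + 0.1), and 1 to 4 on leaving out single libraries. In catgut 1 against treadmill they numbered 0, and 1 with no filter (Lif) or in the fit over all 4 groups, and 0 to 1 on leaving out libraries. In catgut 2 against treadmill they numbered 1, and 2 with no filter, over all 4 groups or with counts divided by 4, 0 with either limma fit, and 0 to 2 on leaving out libraries. Adjusted p-values under 0.05 numbered 0 by edgeR against control and 3, 2 and 1 by DESeq2 in treadmill, catgut 1 and catgut 2, and 0 to 1 in catgut 1 on leaving out libraries.

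The replicate numbers did not pair the rats (at most 3 of 6 same-numbered correlations over 0.1, at most 2 of 6 best with their own number). With the replicate block the count in catgut 2 against treadmill was 0, and sign changed for Il6 in catgut 1 against treadmill (0.586), catgut 2 against treadmill (0.479) and catgut 2 against catgut 1 (0.0136), and for Il1b in the last (0.0986). In catgut 2 against catgut 1, where differences were near 0, the chromosome Y covariate gave 0.269 for Cxcl1, 0.539 for Il6 and 0.119 for Il1b, and limma with pseudocounts 1 and 0.1 gave 0.0073 and 0.0864 for Il6 and 0.0259 and 0.132 for Il1b.

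Leaving out single libraries, the log2 fold change of Ccl2 in catgut 1 against treadmill ran from -1.46 to 0.0865 and that of Cxcl1 from -0.649 to 0.136. For Cxcl1 in catgut 2 against treadmill it ran from -0.987 to 0.0989. In catgut 2 against catgut 1 it ran from -0.671 to 0.303 for Cxcl1, -0.449 to 0.933 for Il6 and -0.302 to 0.709 for Il1b. Differences of log2(FPKM + 1) ran from -0.0411 to 0.00496 for Lif in catgut 2 against control. In catgut 1 against treadmill they ran from -0.593 to 0.154 for Ccl2, -0.773 to 0.0397 for Ccl7 and -0.367 to 0.232 for Cxcl1, and in catgut 2 against treadmill from -0.629 to 0.0287 for Cxcl1. In catgut 2 against catgut 1 they ran from -0.544 to 0.00672 for Cxcl1, -0.054 to 0.106 for Il6 and -0.0711 to 0.195 for Il1b. Depth limits Il6 and Lif, with 18 and 14 of 24 libraries at or under 12 counts. The list counts without treadmill replicate 2 and the bounds without the highest library were chosen after seeing the data.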
